A study of Mus musculus with 9 samples.

Results

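Cxcl1, Cxcl2, Cxcl3 and Cxcl5 encode chemokines that attract neutrophils, and Csf1, Csf2 and Csf3 encode the colony-stimulating factors M-CSF, GM-CSF and G-CSF. These 7 genes were taken by symbol from the 24493 genes of the deposited expression table, and all 7 were found there. Levels are TPM (transcripts scaled to a fixed library total), also scaled to transcript length, so that levels of different genes can be compared. A gene was tested when it reached 1 TPM in at least 3 libraries, which 6 of the 7 did. Cxcl1 did not.

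The series compared cells of a mouse pancreatic tumor line with lines derived from it that are described as resistant to immunotherapy. There were 9 RNA sequencing libraries in 3 groups of 3: parental cells, escape line e1 and escape line e2. All 3 groups shared the C57BL/6 background, growth in DMEM with serum and the absence of any treatment, and no transgene or deletion is named for any of them. Each group is 1 line, and the labels do not say whether a line is a single clone or whether its 3 libraries came from separate cultures, so p-values measure only the spread between these libraries.

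ELR-type CXC chemokines carry the residues glutamate, leucine and arginine just before their first cysteine pair, and they draw neutrophils out of the blood through the receptor CXCR2. G-CSF, acting on CSF3R, drives the production and release of neutrophils from bone marrow. GM-CSF acts on neutrophils, monocytes and dendritic cells, and M-CSF, acting on CSF1R, supports the survival and differentiation of macrophages. Pancreatic tumors are known to secrete these factors and to be rich in neutrophils and macrophages.

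The sequences below show what places the chemokines in one family. Each is 60 bases of coding sequence from the GENCODE M21 annotation of GRCm38, on the plus strand of chromosome 5 and inside 1 exon. Capitals mark the codons for glutamate, leucine, arginine and the next 2 cysteines, and Ppbp, the nearest related gene, is set beside the members.
Cxcl1 chr5:90891475-90891534: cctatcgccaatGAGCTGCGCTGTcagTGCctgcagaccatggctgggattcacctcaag
Cxcl2 chr5:90904121-90904180: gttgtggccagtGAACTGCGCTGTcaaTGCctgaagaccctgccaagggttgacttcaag
Cxcl3 chr5:90786347-90786406: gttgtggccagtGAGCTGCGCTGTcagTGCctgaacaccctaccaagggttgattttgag
Cxcl5 chr5:90759706-90759765: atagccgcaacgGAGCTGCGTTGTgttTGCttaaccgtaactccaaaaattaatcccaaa
Ppbp chr5:90769064-90769123: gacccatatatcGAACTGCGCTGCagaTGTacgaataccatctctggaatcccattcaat

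Coding sequences of Cxcl2 and Cxcl3 were identical at 91.3% of aligned bases, and their transcripts shared a run of 110 bases. Reads from such a run cannot be placed in one of the 2 genes by sequence alone, so the split between Cxcl2 and Cxcl3 is uncertain. Cxcl1 was identical to Cxcl2 at 80.6% of bases and to Cxcl3 at 75.7%, with a longest shared run of 23 bases in each case. Cxcl5 stood further off, at 60.5 to 68.4% identity with the other 3 chemokines and shared runs of at most 12 bases.

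TPM keeps no read depth, so the sequencing depth behind each value is unknown. Between 11188 and 12039 genes reached 1 TPM in a library, and log2 levels correlated over genes at 0.987 to 0.995 between libraries of a group and at 0.840 to 0.923 between groups. Set against the label of pancreatic tumor cells, all 9 epithelial markers had a mean of 1 TPM or more in parental cells and summed there to 8715 to 9898 TPM. In e1 5 of the 9 did so, with sums of 1165 to 1208 TPM, and in e2 6 of the 9, with sums of 1679 to 1739 TPM. Epcam was at 0.131 to 0.329 TPM in the escape libraries, against 114 to 171 TPM in parental cells. Most fibroblast markers ran the other way. Sums over all 12 were 17.1 to 20.1 TPM in the parental group, 329 to 348 TPM in e1 and 348 to 361 TPM in e2. Of the 10 tested, 8 were called higher and 0 lower in e1, and 9 higher and 1 lower in e2. Of all tested genes, 35.7% were called higher and 34.9% lower in e1, and 40.8% and 32.7% in e2. All tested markers but Fbln1 averaged under 1 TPM in parental cells, so they passed the filter only with libraries of the escape lines. The marker counts are therefore a description of levels. Fbln1, the only one with a mean of 1 TPM or more in parental cells, was lower in e2 (-0.91, limma adjusted p = 7.68e-05). It was not called in e1 (-0.05), nor was Pdpn (-0.03). Lum was listed at 0 in all 9 libraries. Of 18 leukocyte markers, the pan-leukocyte gene Ptprc stayed at 0.110 TPM or less, and the T cell gene Cd3e was listed at 0 throughout. The leukocyte list summed to 74.1 to 77.8 TPM in the parental group, 10.9 to 18.3 TPM in e1 and 70.7 to 78.6 TPM in e2. Cd14 was the largest term in each group, with 53.0 to 58.9, 5.92 to 11.1 and 53.6 to 58.5 TPM, and the neutrophil surface gene Ly6g was at 8.57 to 19.996 TPM in the parental group, at 0 in e1 and at 3.77 to 4.76 TPM in e2. S100a8, which encodes a calprotectin chain, was at 0.270 to 1.13 TPM in parental libraries, at 0 in e1 and at 5.21 to 9.71 TPM in e2. It rose by 2.46 in e2 (limma adjusted p = 6.81e-06). S100a8 passed the filter only through e2, the group where it was high, so this rise is a description of its levels. S100a9, also on the list, was listed at 0 in every library of e1 and e2. Lyz2, a myeloid lysozyme gene, was not tested and was listed at 0 outside e2, where it was at 0.914 to 1.51 TPM. Cd68 was called higher in both lines, at 1.45 to 1.94, 2.89 to 4.01 and 5.04 to 5.72 TPM. The 8 endothelial markers summed to under 1 TPM in every library. The part of these shifts in the results below was not tested, and in bulk RNA fewer expressing cells and less RNA per cell cannot be told apart.

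Parental cells expressed the chemokine Cxcl5 and moderate levels of Cxcl3, Csf1, Csf2 and Csf3. Line e1 had lost most of the chemokines, Csf2 and Csf3, and kept Csf1, which was 6.55-fold higher than in parental cells. Line e2 kept part of Cxcl5, most of Cxcl3 and a level of Csf2 near that of parental cells, while Csf3 was as low as in e1 and Csf1 reached 11.5-fold the parental level. Of the 4 chemokines, Cxcl2 alone was called higher in e2 than in parental cells. The plot of levels by library shows these patterns.

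**Figure D1:**
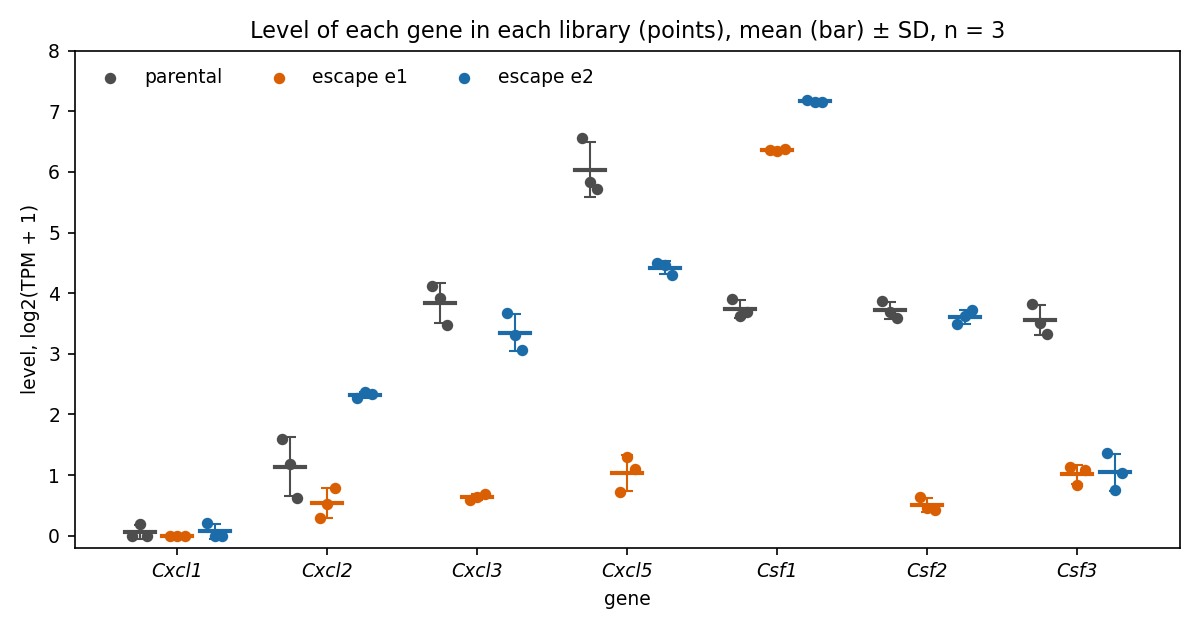
Level of each of the 7 genes as log2(TPM + 1) on the vertical axis, with 1 point per library, a bar at the mean and an error bar of 1 SD (n = 3), for parental, escape e1 and escape e2. The e1 libraries lie below those of parental cells for Cxcl3, Cxcl5, Csf2 and Csf3 and above them for Csf1, and the e2 libraries lie above the parental ones for Cxcl2 and Csf1.

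Changes were tested with limma on log2(TPM + 1) over 12769 genes. A gene was called higher or lower at a two-sided Benjamini-Hochberg adjusted p under 0.05, and fold changes on this scale, given ± SE, understate the change of genes near 0. For e1 against parental, 1 of the 6 tested genes was called higher and 5 lower, where 35.7% of all tested genes were called higher and 34.9% lower. For e2 against parental, 2 were higher and 3 lower, against backgrounds of 40.8% higher and 32.7% lower. That background depended on the scaling: 5209 genes were higher and 4174 lower here, but 4612 and 4835 under median-ratio scaling. For e2 against e1, 5 were higher and 0 lower, against 40.6% and 29.7%. The median log2 fold change of the 6 genes was -2.87, -0.30 and 2.25 in these 3 comparisons, and that of all tested genes was 0.02, 0.07 and 0.09. The first pair of comparisons shares the parental libraries. Of the 6 tested genes, Csf1 passed the 1 TPM filter in every library, and Cxcl2 passed through the e2 libraries with 2 parental ones.

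**Figure D2:**
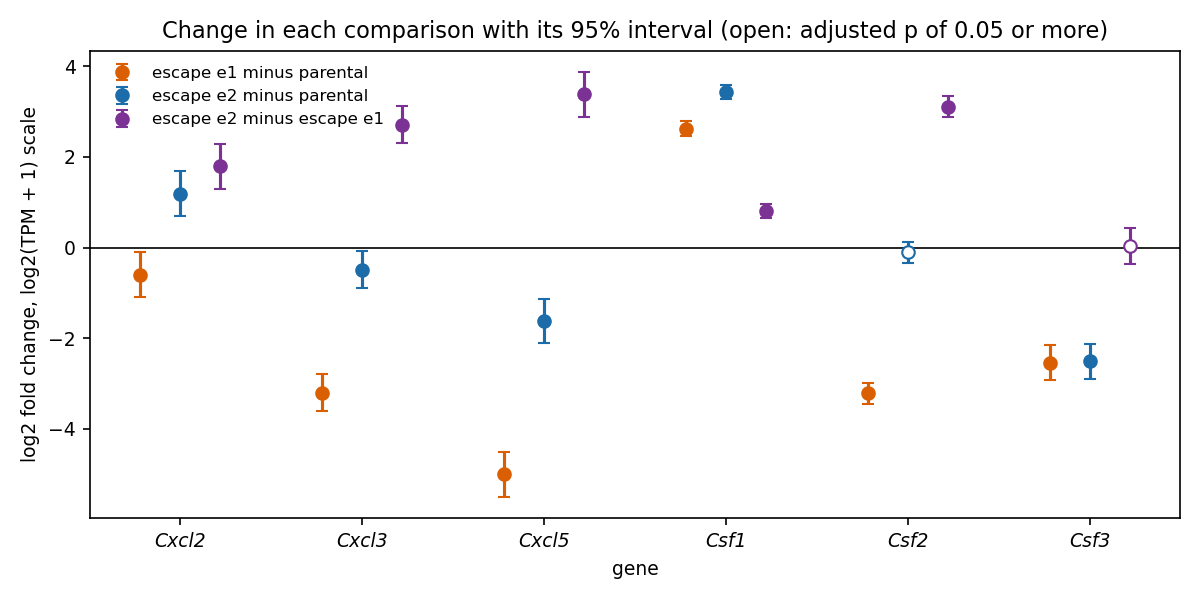
Log2 fold change on the log2(TPM + 1) scale (vertical axis) of the 6 tested genes in the 3 comparisons, with 95% intervals from limma; open points had an adjusted p of 0.05 or more. The open points are Csf2 in e2 minus parental and Csf3 in e2 minus e1.

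Cxcl5, the mouse chemokine also called LIX, lies at chr5:90759298-90761625 (RefSeq gene table, GRCm38.p6). Its level was 93.9, 56.0 and 51.8 TPM in the parental libraries, 0.641, 1.47 and 1.14 TPM in e1, and 21.5, 21.1 and 18.6 TPM in e2. The 3 groups did not overlap, with e1 lowest and e2 between. Cxcl5 fell by 5.002 ± 0.22 on the log2 scale in e1 (limma adjusted p = 3.66e-08), and the mean was 62.0-fold lower. In e2 it fell by 1.62 ± 0.22 (limma adjusted p = 9.9e-05), and the mean was 3.29-fold lower. The difference between the lines was 3.38 ± 0.22 (limma adjusted p = 8.35e-07), with e2 18.9-fold above e1.

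Cxcl3, at chr5:90786101-90788093, stood at 16.4, 14.2 and 10.2 TPM in parental cells, 0.497, 0.558 and 0.614 TPM in e1, and 11.7, 8.94 and 7.40 TPM in e2. The e1 libraries lay below all others, while the ranges of parental and e2 libraries overlapped. The mean in e1 was 24.4-fold below parental, a log2 change of -3.20 ± 0.18 (limma adjusted p = 2.14e-07). In e2 the mean was 1.45-fold below parental, a log2 change of -0.49 ± 0.18 that passed the test narrowly (limma adjusted p = 0.0321). That call was lost without parental library 1, where the change was -0.35 (limma adjusted p = 0.126), and also without parental library 2, e2 library 2 or e2 library 3. Line e2 exceeded e1 by 2.71 ± 0.18 (limma adjusted p = 9.96e-07), or 16.8-fold.

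Cxcl2, known as MIP-2, lies at chr5:90903899-90905938. It was a low gene throughout, at 2.03, 1.26 and 0.546 TPM in parental cells, 0.231, 0.431 and 0.732 TPM in e1, and 3.84, 4.15 and 4.03 TPM in e2. The e2 libraries were above all others, and the lowest parental library fell within the range of e1. Cxcl2 rose by 1.19 ± 0.22 in e2 against parental (limma adjusted p = 0.0008), a 3.13-fold higher mean. It was 1.79 ± 0.22 higher in e2 than in e1 (limma adjusted p = 5.81e-05), or 8.63-fold. In e1 the change from parental was -0.60 ± 0.22 (limma adjusted p = 0.0325), and this call held in 10 of 17 alternative settings, whose adjusted p ran from 0.00224 to 0.118. Without parental library 1 it was -0.37, and the call was also lost without parental library 2, e1 library 1 or e1 library 2.

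Cxcl1, a neutrophil chemokine also called KC, lies at chr5:90891245-90893121. It was listed at 0 in 7 of the 9 libraries, at 0.149 TPM in parental library 2 and at 0.162 TPM in e2 library 1. None of the 3 groups therefore had a level that could be compared.

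The plot of summed levels sets these chemokines side by side. Together the 4 chemokines came to 82.1 ± 26.5 TPM in parental cells, 2.10 ± 0.637 TPM in e1 and 33.8 ± 3.58 TPM in e2 (SD, n = 3). Cxcl5 made up 81.6% of the sum in parental cells, 50.8% in e1 and 60.5% in e2. The share of Cxcl3 was 16.9% in parental cells, 27.9% in e1 and 27.4% in e2, and that of Cxcl2 was 1.48, 21.3 and 11.95% in the same order. Both escape lines thus had a lower sum with a larger part of Cxcl2 and Cxcl3, and for each of the 3 shares the parental libraries did not overlap those of either line. In e1 Cxcl2 and Cxcl3 were below 1 TPM in every library, so the e1 shares are ratios of low values. With Ppbp in the sum, which made up 32.4% of it in parental cells, the share of Cxcl5 was not lower in e2. It was then 55.1% in parental cells, 46.9% in e1 and 59.7% in e2.

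**Figure D3:**
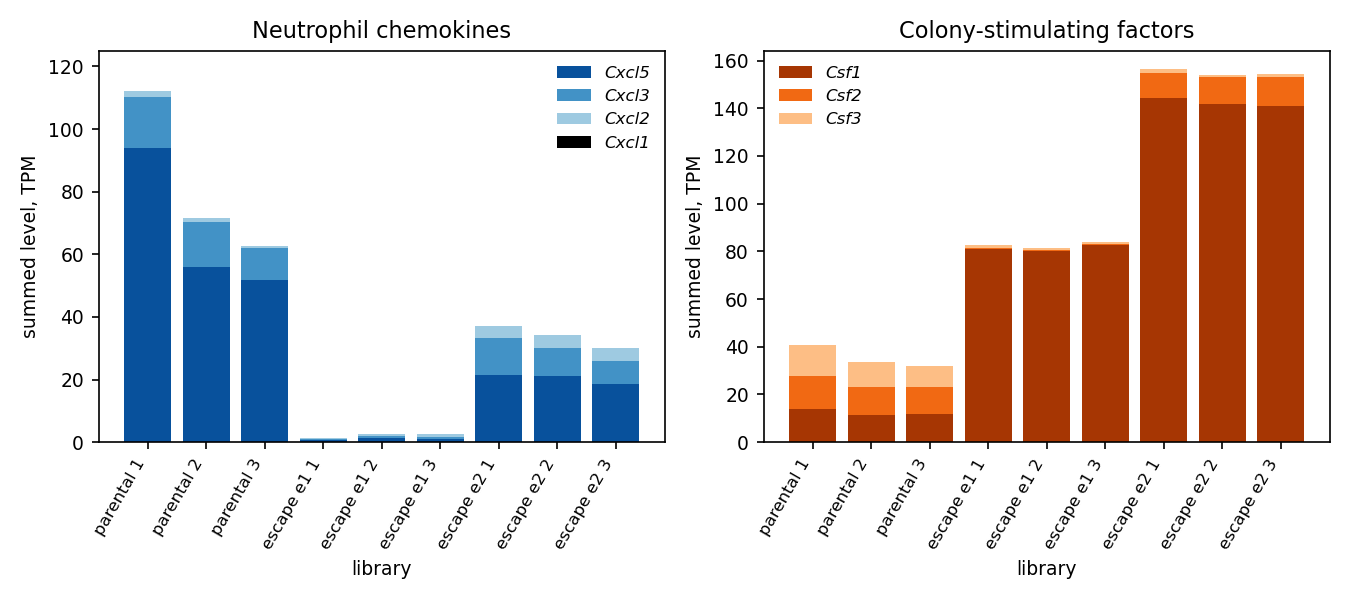
Stacked bars of TPM per library (vertical axis, from 0) for the 4 neutrophil chemokines on the left and the 3 colony-stimulating factors on the right. The chemokine stacks are 62.5 to 112 TPM in the parental group, 1.37 to 2.49 TPM in e1 and 30.1 to 37.2 TPM in e2, and the right-hand stacks are 32.0 to 40.7 TPM in parental cells and 154 to 156 TPM in e2.

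The colony-stimulating factors moved apart from each other. Csf1 (M-CSF), on the minus strand at chr3:107741048-107760469, was at 13.96, 11.3 and 11.9 TPM in parental cells, 80.9, 80.1 and 82.6 TPM in e1, and 144, 142 and 141 TPM in e2. The 3 groups were far apart, and the SD within each was at most 1.75 TPM. Csf1 rose by 2.62 ± 0.07 in e1 (limma adjusted p = 1.42e-09) and by 3.43 ± 0.07 in e2 (limma adjusted p = 2.79e-10). Between the lines it was 0.80 ± 0.07 higher in e2 (limma adjusted p = 6.3e-06), a 1.76-fold higher mean.

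Csf2 (GM-CSF), at chr11:54247270-54249899, separated the 2 escape lines most sharply among the colony-stimulating factors. It stood at 13.6, 11.9 and 11.1 TPM in parental cells, 0.549, 0.365 and 0.344 TPM in e1, and 10.3, 11.3 and 12.1 TPM in e2. Parental and e2 libraries overlapped, and e1 lay below both. In e1 the mean was 29.0-fold lower than in parental cells, a log2 change of -3.21 ± 0.10 (limma adjusted p = 3.65e-09). In e2 the change from parental was -0.11 with a 95% interval of -0.33 to 0.12 (limma adjusted p = 0.356). Line e2 was 26.8-fold above e1, a difference of 3.11 ± 0.10 (limma adjusted p = 1.13e-08).

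Csf3 (G-CSF), at chr11:98700183-98703631, was at 13.1, 10.4 and 9.09 TPM in parental cells, 1.19, 0.787 and 1.12 TPM in e1, and 1.57, 0.681 and 1.04 TPM in e2. Every escape library was below every parental one, and the 2 escape lines overlapped. The mean was 10.6-fold lower in e1, a change of -2.54 ± 0.17 (limma adjusted p = 8.35e-07). In e2 it was 9.91-fold lower, a change of -2.51 ± 0.17 (limma adjusted p = 8.25e-07). The difference between e2 and e1 was 0.03, with a 95% interval of -0.36 to 0.42 (limma adjusted p = 0.885).

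The sum of the 3 colony-stimulating factors was 35.5 ± 4.63 TPM in parental cells, 82.6 ± 1.43 TPM in e1 and 154.9 ± 1.27 TPM in e2 (SD, n = 3). In parental cells the 3 genes contributed like amounts, with Csf1 at 35.04%, Csf2 at 34.4% and Csf3 at 30.5% of the sum. Csf1 made up 98.2% in e1 and 92.0% in e2. Csf2 fell to 0.508% of the sum in e1 and 7.25% in e2, and Csf3 to 1.24% and 0.707%.

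Ordered by mean level, Cxcl5 was first in parental cells, and its libraries did not overlap those of any other member. Cxcl3, Csf1, Csf2 and Csf3 followed with overlapping neighbours, then Cxcl2 and Cxcl1, each apart from the gene above it. In e1 the order was Csf1, then Cxcl5 and Csf3, which overlapped, then Cxcl3, Cxcl2 and Csf2, which also overlapped, and last Cxcl1. In e2 it was Csf1, Cxcl5, Csf2 and Cxcl3 with overlapping libraries, Cxcl2, Csf3 and Cxcl1. Csf1 thus ranked 3 in parental cells and 1 in both escape lines.

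Within the parental group, library 1 was the highest for all 6 tested genes, and library 3 the lowest for 5 of them. Parental library 1 also differed for immediate early genes of the context lists. Fos was at 23.9 TPM there against 95.6 and 88.5 TPM in the other parental libraries. Egr1 was at 21.3 against 49.99 and 47.1 TPM, and Zfp36 at 25.1 against 51.0 and 47.4 TPM. The part of this library in the results was not tested beyond leaving it out, after which every call of the 6 genes except the 2 named above held.

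Other ligands of the same receptors showed further differences. Ppbp, the chemokine CXCL7 that also binds CXCR2, was at 65.0, 29.0 and 28.9 TPM in parental cells, at 0, 0.431 and 0.163 TPM in e1 and at 0.275, 0.407 and 0.565 TPM in e2. It fell by 5.04 ± 0.28 in e1 (limma adjusted p = 2.14e-07) and by 4.79 ± 0.28 in e2 (limma adjusted p = 2.66e-07), and the lines differed by 0.25 (limma adjusted p = 0.449). Ppbp reached 1 TPM in the 3 parental libraries alone, so it entered the test only through the group where it was high, leaving out any parental library removed it from the tested genes, and the 2 falls are a description of these levels. Ppbp was thus second to Cxcl5 among the neutrophil chemokines of parental cells, and low in e2, where Cxcl5 was kept in part. Cxcl15, another ELR chemokine, was at 0.273 TPM or less in all libraries and was not tested. Il34, which encodes the second ligand of CSF1R, was at 15.6, 13.2 and 15.3 TPM in parental cells, 15.1, 20.5 and 19.995 TPM in e1, and 40.007, 39.9 and 38.4 TPM in e2. Il34 rose by 1.37 ± 0.11 in e2 (limma adjusted p = 2.49e-06), and both ligands of CSF1R were highest in that line. In e1 its change was 0.30 ± 0.11 (limma adjusted p = 0.0317) with overlapping libraries, and that call was lost in 6 alternatives, such as leaving out e1 library 2 (adjusted p = 0.111).

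Of the 8 receptor genes, 1 was tested. Csf2ra, the ligand-binding chain of the GM-CSF receptor, was at 5.12, 4.36 and 4.79 TPM in parental cells, 3.70, 4.36 and 5.03 TPM in e1, and 7.98, 7.71 and 8.45 TPM in e2. It rose by 0.65 in e2 (limma adjusted p = 0.000241) and was not called in e1 (-0.11, limma adjusted p = 0.362). The signalling chain gene Csf2rb and the related gene Csf2rb2 were at 0.0297 TPM or less in every library. Cxcr2, the main receptor of the ELR chemokines, was at 0.305 to 0.558 TPM, while Cxcr1 and the scavenging receptor Ackr1 were listed at 0 in all 9 libraries. Csf1r was at 0.604 to 0.966 TPM in parental cells and at 0.0830 to 0.139 TPM in the escape lines, and Csf3r at 0.1004 to 0.233 TPM over all libraries. Apart from Csf2ra, no receptor gene of the list reached 1 TPM in any library.

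The 4 chemokines and Ppbp belong to 1 gene cluster on chromosome 5 that runs over 146.6 kb from Cxcl5 to Cxcl2, with Ppbp, Pf4 and Cxcl15 among the genes between. The levels along the cluster were uneven, as the plot by position shows. In parental cells the genes at the Cxcl5 end (Cxcl5, Ppbp and Cxcl3) were high, while Pf4, which encodes platelet factor 4, reached at most 0.462 TPM in any library. Line e2 kept Cxcl5 and Cxcl3 in part and had lost Ppbp, which lies between them. Mthfd2l, a folate enzyme gene beyond Cxcl2, fell by 0.84 ± 0.07 in e1 (limma adjusted p = 3.98e-06) and was not called in e2 (-0.15, limma adjusted p = 0.0897), although its libraries did not overlap and 4 of 18 alternatives called it, with a lowest adjusted p of 0.0287. Further on lies Areg, which encodes the EGF receptor ligand amphiregulin and is outside the rule for named genes, having been chosen after its values were seen. It was at 49.6, 81.0 and 72.5 TPM in parental cells, 9.14, 6.08 and 6.17 TPM in e1, and 86.3, 85.5 and 82.7 TPM in e2. Areg fell by 3.07 ± 0.18 in e1 (limma adjusted p = 3.43e-07), and e2 was 3.42 above e1 (limma adjusted p = 2.55e-07). In e2 the change from parental was 0.35 (limma adjusted p = 0.112), which without parental library 2 was 0.49 (limma adjusted p = 0.0474).

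**Figure D4:**
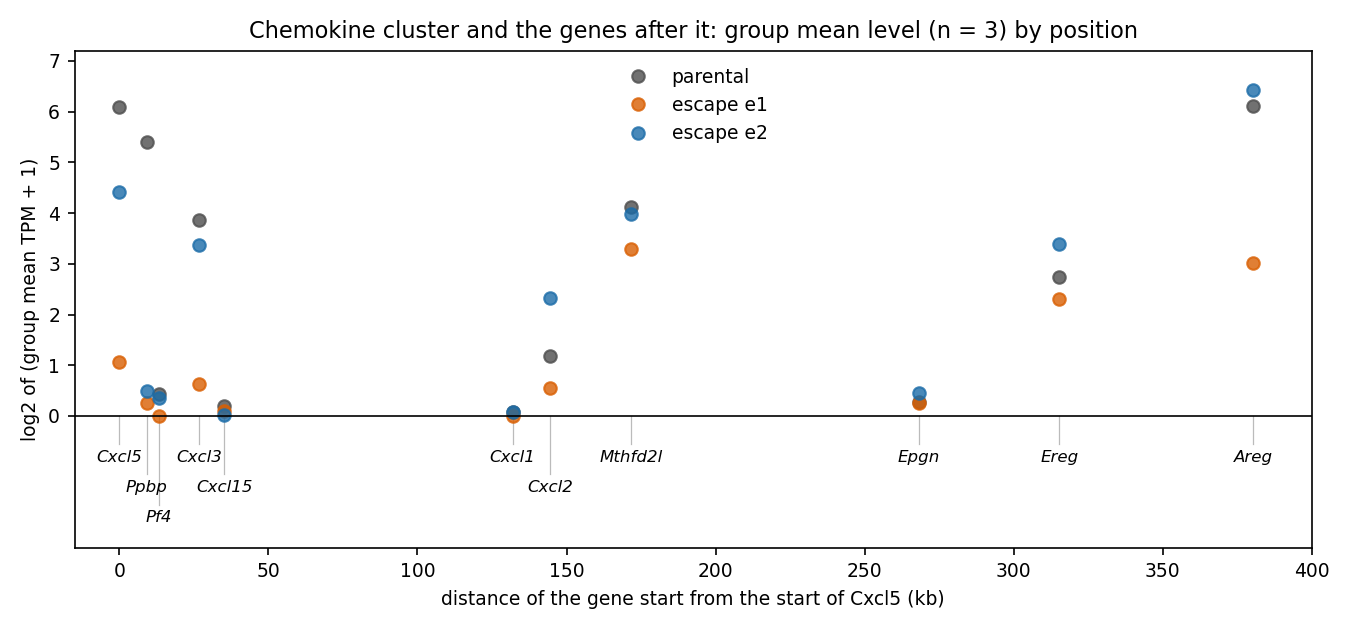
Log2 of (group mean TPM + 1) on the vertical axis against the distance of each gene's start from the start of Cxcl5 in kb, for the 7 chemokine genes of the cluster and the 4 genes after it (n = 3 libraries a group). Cxcl5, Cxcl3 and Areg are lowest in e1, Ppbp is low in both escape lines, and Cxcl1, Cxcl15, Pf4 and Epgn are near 0 in all groups.

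On the other side of the cluster, Rassf6, a Ras association domain gene, was at 24.7 to 26.3 TPM in the parental group, 1.35 to 1.79 TPM in e1 and 10.9 to 12.03 TPM in e2, an order of groups like that of Cxcl5. The plasma protein gene Afp was at 20.1 to 26.4 TPM in parental cells and 5.25 to 6.65 TPM in the escape lines. The neighbours of Csf1 did not follow it: Eps8l3 was at 15.5 to 22.8 TPM in parental cells and 0.133 TPM or less in the escape lines, and Ahcyl1 at 87.7 to 94.5, 143 to 148 and 100 to 102 TPM in parental, e1 and e2. Il3, the cytokine gene next to Csf2, was at 0.109 TPM or less throughout. Beside Csf3, the proteasome gene Psmd3 was at 194 to 217 TPM in the parental group, 215 to 280 TPM in e1 and 141 to 144 TPM in e2. Med24, a Mediator subunit gene on its other side, was between 22.2 and 35.8 TPM in all libraries.

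Promoter sequences, from 250 bases before to 50 after each RefSeq start (GRCm38.p6), were held for 5 of the 7 members, leaving out Cxcl5 and Csf3. The letters GGNNTTTCC, a form of the site that NF-kB proteins bind, were found on either strand in all 5, against 5.82% of 32851 promoters of the same length. In Csf2 the match lay 23 bases after the start. A second form, GGGNNTTCC, which shares letters with the first and occurs in 5.82% of promoters, was in 0 of the 5, as was the AP-1 form TGANTCA (7.81%). The C/EBP form TTGCNNAA (10.8%) was in Csf2, 145 bases before the start, and the TATA box TATAAA (13.6%) in Cxcl3, 30 bases before it. A match describes letters and not binding. The windows of 90 bases that hold the upstream GGNNTTTCC matches are printed because all 5 searched members share that form, whether their RNA rose or fell. Capitals mark the match on either strand, and each runs 5′ to 3′ on the strand of the gene.
Cxcl1 chr5:90891127-90891216 (plus strand): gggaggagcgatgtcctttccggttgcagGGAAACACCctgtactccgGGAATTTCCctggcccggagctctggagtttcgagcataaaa
Cxcl2 chr5:90903781-90903870 (plus strand): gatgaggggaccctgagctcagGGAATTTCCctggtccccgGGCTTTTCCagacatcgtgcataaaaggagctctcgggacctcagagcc
Cxcl3 chr5:90785983-90786072 (plus strand): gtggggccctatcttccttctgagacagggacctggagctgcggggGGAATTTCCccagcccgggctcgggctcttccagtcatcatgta
Csf1 chr3:107760574-107760663 (minus strand): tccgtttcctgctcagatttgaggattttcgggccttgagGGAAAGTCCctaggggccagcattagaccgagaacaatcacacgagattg

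The windows of Cxcl1 and Cxcl2 each held 2 matches, and those of Cxcl3 and Csf1 held 1. The 3 chemokine windows end 29 bases before the RefSeq start, while the Csf1 window lies 194 to 105 bases before it. Cxcl1, at or near 0 in every library, and Csf1, the highest member in the escape lines, thus both carried the letters.

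The 3′ untranslated regions of the members were compared by the pentamer ATTTA, the core of the AU-rich elements known to shorten the life of cytokine mRNAs. For each gene the transcript with the longest such region was taken. Over 19782 genes the median was 1.35 pentamers per kb. Csf2 held 9 in 317 bases, or 28.4 per kb, and 7 of those genes had a higher density. Cxcl1 held 7 (11.8 per kb), Csf3 6 (8.97), Cxcl3 5 (7.75), Cxcl2 11 (7.36) and Cxcl5 5 (4.50). Csf1 held 4 in 2111 bases, or 1.90 per kb, close to the median. Csf1 had the lowest density of the 7 and Csf2 the highest. Ppbp, not a member, held 1 in 656 bases, or 1.52 per kb. That is below the density of Csf1. A link between these densities and the changes in level was not tested.

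The remaining lists were compared by counts of called genes. The genes that encode cytokines known to induce these ligands, and their receptors, were tested for 17 of 18 members, the other being Il1b, which reached at most 0.0506 TPM and is named for that reason. In e1 7 were called higher and 8 lower, in e2 10 and 6, and between e2 and e1 9 and 4. Il1rn, which encodes the IL-1 receptor antagonist, was at 101, 108 and 102 TPM in parental cells, 0.257, 0.271 and 0.289 TPM in e1, and 43.2, 44.8 and 43.1 TPM in e2. Its order of groups was that of Cxcl5, with changes of -6.36 in e1 (limma adjusted p = 2.9e-12) and -1.23 in e2 (limma adjusted p = 3.07e-08). Il1a, the IL-1 alpha gene, was at 2.28 to 2.82 TPM in parental cells and at 0 to 0.121 TPM in the escape lines, and Il33, an IL-1 family alarmin, fell by 2.79 in e1 and by 3.19 in e2. These 2 cytokine genes, like Csf3, were low in both lines.

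Receptor genes of the same list moved in both directions. Il1rap, the shared chain of the IL-1 receptors, rose by 2.42 in e1 and 2.78 in e2, with 0.833 to 0.873 TPM in the parental libraries and 11.5 to 11.9 TPM in e2. Il1r1, which binds IL-1, was at 11.2 to 12.5 TPM in the parental group, 5.19 to 7.83 TPM in e1 and 26.9 to 28.9 TPM in e2. The endotoxin receptor gene Tlr4 rose by 1.72 in e2 (limma adjusted p = 9.43e-07) and was not called in e1 (-0.12, limma adjusted p = 0.391). Tlr3, a sensor of double-stranded RNA, fell by 2.53 in e1 and by 1.49 in e2. Il17re, a receptor chain for IL-17C, was at 3.52 to 5.36 TPM in parental cells and at 0.0901 TPM or less in the escape lines. It passed the filter only through the parental group, where it was high. Its falls of 2.35 in e1 and 2.35 in e2 are therefore a description of its levels. The TNF receptor gene Tnfrsf1b rose by 1.04 in e1 and by 1.997 in e2. Il17ra, the common IL-17 receptor chain, rose by 1.23 in e1 and by 0.53 in e2.

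All 27 NF-kB pathway genes were tested, with 8 called higher and 10 lower in e1, 12 and 7 in e2, and 17 and 6 between e2 and e1. Beside these counts stand 35.7% higher and 34.9% lower of all tested genes in e1, 40.8% and 32.7% in e2, and 40.6% and 29.7% between e2 and e1, and the same backgrounds apply to the other lists. Counts near these shares are no result about a list. Under median-ratio scaling the count lower in e2 was 11. Bcl3, a nuclear partner of NF-kB, was at 27.1 to 36.5 TPM in the parental group, 3.83 to 5.36 TPM in e1 and 22.3 to 25.0 TPM in e2, and fell by 2.58 in e1. Nfkbiz, which encodes a related nuclear IkB protein, fell by 2.20 in e1 and by 1.11 in e2. Tnfaip3, which encodes the feedback inhibitor A20, fell by 1.77 in e1 and by 1.70 in e2, with 25.2 to 28.6 TPM in the parental libraries and 5.94 to 9.36 TPM in the lines. In contrast, Nfkbia, the IkB alpha gene, rose by 1.05 in e1 and 1.46 in e2, and Map3k14, the kinase of the non-canonical pathway, by 1.07 and 1.62. Nfkbie, another IkB gene, rose by 2.02 in e2 (limma adjusted p = 1.33e-08) and was not called in e1 (-0.14), although without e1 library 1 it was called lower there (limma adjusted p = 0.0279). Ikbkb, an IkB kinase gene, fell by 0.56 in e1 and by 1.33 in e2.

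Among 13 AP-1 and C/EBP factor genes, 2 were called higher and 4 lower in e1, 6 and 4 in e2, and 7 and 2 between e2 and e1. Jun rose in both lines, with 14.3 to 18.6 TPM in the parental libraries, 58.5 to 60.9 TPM in e1 and 71.9 to 75.1 TPM in e2. Junb, at 271 to 331 TPM in parental cells and 297 to 316 TPM in e2, was at 121 to 128 TPM in e1, a fall of 1.31 that left e1 low and e2 near parental, as for Csf2. Cebpb, a C/EBP factor known to act on Csf3, rose by 1.47 in e2 and was not called in e1 (0.04, limma adjusted p = 0.762). Atf3, a stress-induced factor, fell by 1.93 in e1 and by 2.09 in e2, and Fos was 2.10 higher in e2 than in e1 (limma adjusted p = 0.00597).

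Of 14 genes that report ERK pathway output, 3 were called higher and 5 lower in e1, 6 and 3 in e2, and 10 and 1 between e2 and e1, where the list median was 0.68 against 0.09 for all genes. Without e1 library 2 the count higher in e1 was 6. Ier3, an immediate early gene, was at 239 to 280 TPM in the parental group, 63.6 to 81.9 TPM in e1 and 235 to 240 TPM in e2. Etv1, an ETS factor, rose in both lines, with 0.137 to 0.390 TPM in the parental libraries, 4.34 to 6.55 TPM in e1 and 33.8 to 35.6 TPM in e2. Egr1 rose by 2.66 in e2 (limma adjusted p = 3.01e-05), and Dusp5, an ERK phosphatase gene, fell by 0.92 in e1 and by 1.20 in e2.

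Regulators of AU-rich mRNA gave 2 higher and 4 lower of 14 in e1, 6 and 6 in e2, and 4 and 6 between e2 and e1. With median-ratio scaling, the count higher in e2 was 3, and without e1 library 1 the count lower in e1 was 7. Zfp36, which encodes tristetraprolin, a protein that destabilises AU-rich mRNAs, rose by 1.57 in e2 (limma adjusted p = 0.000764), to 116 to 121 TPM. Its relative Zfp36l1 fell by 1.21 in e1 and rose by 0.40 in e2. Hnrnpd, which encodes the AU-binding protein AUF1, fell by 0.57 in e1 and by 0.38 in e2. Arid5a, which stabilises cytokine mRNAs, rose by 0.83 in e2.

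**Figure D5:**
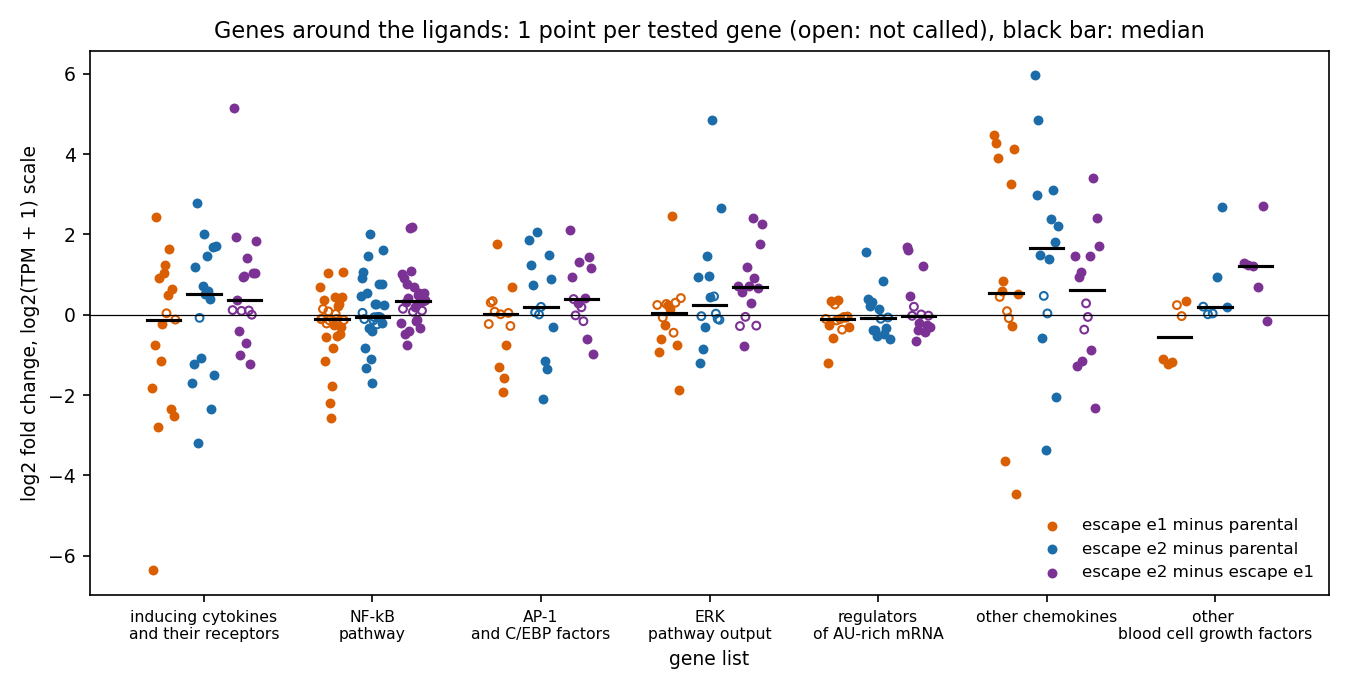
Log2 fold change on the log2(TPM + 1) scale (vertical axis) of each tested gene of 7 context lists in the 3 comparisons; open points were not called and black bars are list medians. The bars for the ERK output list lie at 0.04 in e1 minus parental, 0.23 in e2 minus parental and 0.68 in e2 minus e1.

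Chemokines for other leukocytes moved in both directions. Of 24, 14 were tested, and 8 were called higher and 3 lower in e1, 9 and 3 in e2, and 7 and 4 between e2 and e1. Ccl2, the main monocyte chemokine, was at 0.453 to 0.762 TPM in the parental group, 27.3 to 39.2 TPM in e1 and 93.0 to 96.5 TPM in e2, the same order of groups as Csf1. Ccl7, its neighbour in function, rose by 3.91 in e1 and by 4.85 in e2. Ccl5, a T cell chemokine, rose by 4.26 in e1 and by 2.98 in e2. Cxcl16 fell by 4.45 in e1 and by 2.05 in e2, from 117 TPM or more in every parental library, an order like that of Cxcl5. Ccl20, which draws cells with the receptor CCR6, was at 19.2, 9.97 and 9.92 TPM in parental cells and at 0 to 0.355 TPM in the lines. Csf3 and Ppbp were also low in both lines, Csf3 at higher values than Ccl20. Cxcl12 rose by 3.11 in e2, to 9.55 to 10.8 TPM. In e1 Cxcl12 was called lower (-0.29, limma adjusted p = 0.025), a call that held in 11 of 15 alternatives. Cxcl12 passed the filter only through e2, the group where it was high, so its rise there is a description of its levels. Its e1 call compares libraries that were all below 1 TPM. Cxcl14 rose by 4.12 in e1 and by 1.81 in e2.

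Other blood cell growth factors were tested for 6 of 14 genes, with 1 higher and 3 lower in e1, 3 and 0 in e2, and 5 and 1 between e2 and e1. Lif, a cytokine of the IL-6 family, was at 9.99 to 11.6 TPM in the parental group, 2.84 to 6.69 TPM in e1 and 10.4 to 10.8 TPM in e2. Kitl, stem cell factor, was at 14.6 to 15.6, 4.90 to 6.82 and 15.002 to 15.7 TPM in the same order. Lif and Kitl thus resembled Csf2, with a low level in e1 alone. Tslp, which encodes thymic stromal lymphopoietin, was at 0.0739 TPM or less in parental cells and e1, and at 5.12 to 6.14 TPM in e2.

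For each tested member, the 3 genes with the most similar pattern were found by the root mean square difference of centred log2(TPM + 1) values over the 9 libraries, among 12116 genes. These values are a description, and libraries of a group are not independent points. Nearest to Cxcl5 were Fxyd3 (0.286), Akr1c13 and Hs3st1. Smox, a spermine oxidase gene, was nearest to Cxcl3 at 0.163 (Pearson r = 0.994), with levels of 31.5 to 40.8, 3.11 to 3.44 and 25.0 to 27.4 TPM in parental, e1 and e2, followed by Maob and Tcf24. For Cxcl2 they were Trp53inp1, Slc4a3 and C1s1, at 0.190 to 0.201. Prkar2b, a regulatory subunit of protein kinase A, was nearest to Csf1 at 0.104 (r = 0.999), followed by Irx1 and Ntn1. Pcdh1, a protocadherin gene, was nearest to Csf2 at 0.150 (r = 0.995), followed by Mfsd6 and Armcx3. For Csf3 they were Ctla2a at 0.130 (r = 0.995), Ovol2 and Cers3.

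Members were also near each other in some pairs. Csf2 ranked 8 among the genes nearest to Cxcl3, and Cxcl3 ranked 13 among those nearest to Csf2, at a difference of 0.294 (r = 0.981), although they lie on different chromosomes. Cxcl3 ranked 42 among the genes nearest to Cxcl5, at a difference of 0.770 (r = 0.977). The colony-stimulating factors were no such group: Csf1 and Csf3 were opposed (r = -0.953), and Csf3 ranked 2872 for Csf2.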

How the data were processed

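For the 9 libraries the authors deposited TPM for every gene, and also rlog values, which are on a log2 scale. Per the submitters' processing notes, the tools were Salmon and DESeq2 and the build mm10, with versions, annotation and strand setting not given in the sources used here. Read counts cannot be had from TPM, so counting errors are not given and a 0 is only a listed 0.

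From the TPM table, log2(TPM + 1) was computed for the 12769 of 24493 genes that reached 1 TPM in 3 or more libraries. Group means were fitted over all 9 libraries with limma 3.58.1 in R 4.3.3, with trend and robust options in its empirical Bayes step. P-values are two-sided and were adjusted by Benjamini-Hochberg over the tested genes. Groups follow the sample titles. The steps were tested on simulated data.

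The members and gene lists were chosen with earlier results of these data known, so counts over lists are descriptions. Named genes are all members, the other ligands and receptors, up to 3 called genes per list, direction and comparison with the largest fold changes, the 3 most similar genes and the 3 nearest genes on each side of a member, and any cell marker. Areg and Il1b were named outside this rule. Gene positions and promoters come from RefSeq tables of GRCm38.p6, matched by symbol, and coding sequences and 3′ ends from GENCODE M21. Promoter motifs were searched on both strands. Alternatives were a pseudocount of 0.1, no filter or 5 TPM, median-ratio scaling, leaving out the 10 highest genes, the rlog values, fits of the compared groups only, a replicate block, plain empirical Bayes, and leaving out each library. For genes beside the members these were added after the data were seen.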

Additional observations from a re-analysis of the deposited data

Results flagged for a closer look

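For 5 of the 6 tested genes, the change from parental cells differed between e1 and e2 by the test of the difference itself, limma's contrast of e2 minus e1. The difference was 1.79 on the log2 scale for Cxcl2 (-0.60 in e1, 1.19 in e2). The e1 call of Cxcl2 held in 10 of 17 alternatives, and its e1 and parental libraries overlapped. The difference was 2.71 for Cxcl3 (-3.20 and -0.49), 3.38 for Cxcl5 (-5.002 and -1.62) and 3.11 for Csf2 (-3.21 and -0.11). For Csf1 it was 0.80 (2.62 and 3.43). Among all tested genes, 40.6% were called higher and 29.7% lower in the same contrast. Csf3 was not called (0.03).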

How the results depend on the processing

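No called fold change of the 6 tested genes reversed, and no other gained a call, in any setting run. The uncalled difference of Csf3 between e2 and e1 ran from -0.13 to 0.18 and so changed sign. Of 162 fold changes with 1 library left out, 154 kept their call and 8 lost it, and of 159 under other settings 155 kept it and 4 lost it. All lost calls were those of Cxcl2 in e1 and Cxcl3 in e2 against parental. For Cxcl2 the change of -0.60 was not called with no filter (adjusted p = 0.051), with 2 groups only (0.0688) or with the replicate block (0.0582), and with 1 library left out it ran from -0.85 to -0.37. For Cxcl3 the change of -0.49 was not called with 2 groups only (0.0683), and with 1 library left out it ran from -0.67 to -0.35. The count of members higher in e2 was 1 under the 5 TPM filter, which removes Cxcl2. A pseudocount of 0.1 enlarged the change of low genes, to -4.58 for Csf2, -4.36 for Cxcl3 and -1.23 for Cxcl2 in e1.

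Same-numbered libraries of different groups did not deviate together (9 pairs, r from -0.13 to 0.05, 0 above 0.1). A pairing with little effect would give such values too, so whether the numbers pair the libraries is unknown. The replicate block ended no member's call but that of Cxcl2 in e1. Of 310 calls among 135 other genes, 275 held in every alternative that tested them and 0 reversed. Counts for inducing cytokines rest partly on low genes: under the 5 TPM filter 4 were higher and 5 lower in e1, and 3 lower in e2. Without a single parental library, genes high in that group alone, Ppbp among them, fell below the filter. Sequencing depth is unknown, so no limit from depth can be given for Cxcl1 or the receptors near 0.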
